A study of Homo sapiens with 6 samples.

Results

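The genes of the unfolded protein response and of the integrated stress response were examined in BaF3-T315I cells exposed to I13. They were taken by name from a list of 38 mouse gene symbols, drawn up with earlier results of these data known, and 37 of them had a row among the 22413 genes of the expression table. Chac1, a glutathione-degrading enzyme, is not analysed here. BaF3-T315I derives from Ba/F3, a murine line of pro-B origin, and was stably transfected with BCR-ABL carrying the T315I substitution, the change in the kinase domain that makes BCR-ABL resistant to imatinib. All 6 samples come from this line. In 3 samples the cells were labelled as control, and in 3 they had received I13, an indole-3-butyric acid derivative that inhibits histone deacetylases, at 1.1 µM for 48 h. What the controls received and for how long is not stated in the labels, nor whether the samples of a group were separate cultures, so the p-values measure the spread between these samples, which may be technical. The sample labels name the organism as human and the build as hg38, whereas the gene identifiers are those of mouse, and the table was read as one of mouse genes.

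The endoplasmic reticulum (ER) folds secreted and membrane proteins. When unfolded proteins build up there, the sensors IRE1 (gene Ern1), ATF6 and PERK (gene Eif2ak3) are activated, and XBP1 and ATF6 then raise the transcription of chaperones, disulfide isomerases and the machinery that returns misfolded proteins to the cytosol for degradation. PERK and the amino acid sensor GCN2 (gene Eif2ak4) also phosphorylate the translation factor eIF2, which lowers protein synthesis in general but favours translation of ATF4, a transcription factor for amino acid synthesis and uptake. This eIF2 branch is the integrated stress response. XBP1 is activated by splicing of its mRNA and ATF4 by translation, and neither step is measured by the abundance of the mRNA.

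Expression is given in FPKM, a fragment count scaled by gene length and by library total, so that levels of different genes can be set side by side. The libraries held 16762119 to 17722950 fragments, as recovered from the FPKM values. Calr had the highest mean of the 37 genes, and Psph the lowest, with 43 to 71 fragments per library. I13 was compared with control by limma on log2(FPKM + 0.1) in 12163 genes, those whose FPKM averaged 0.5 or more, and all 37 genes passed this filter. A gene was called where the Benjamini-Hochberg adjusted p was below 0.05 and the log2 fold change reached 0.58 in either direction. Over all genes tested, samples of the same replicate number deviated together weakly, with correlations of 0.15, 0.30 and 0.22 for replicates 1, 2 and 3. A second fit therefore used the replicate number as a block, and a control and an I13 sample of the same number are called a pair. The labels do not say what a number shares, so this pairing rests on these weak correlations alone. Of the markers of the line, Csf2rb and Csf2rb2, subunits of the IL-3 receptor, lay between 196 and 838 FPKM in all samples, and the B-lineage genes Cd79a and Cd79b at 14.1 to 27.5 and 3.57 to 6.94 FPKM. The 11 markers of the line summed to 472 to 929 FPKM in the controls and 951 to 1700.0 FPKM after I13. Others were at or near 0, with at most 0.107 FPKM for Ebf1, Pax5, Vpreb1 and Igll1 and at most 0.396 FPKM for Vpreb3. Of the 5 myeloid markers measured, Csf1r, Mpo and Elane were also at or near 0, with at most 0.115 FPKM. The summed level of the 5 was 19.9 to 41.6 FPKM in the controls and 48.3 to 78.8 FPKM after I13, most of it Adgre1. The part of either list in the results was not tested.

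The ER folding genes mostly stood higher after I13. Of the 14 chaperones, co-chaperones and disulfide isomerases, 12 had a higher mean on the log scale, 9 had an unadjusted p below 0.05, and each of these 9 was higher after I13. Their median log2 fold change was 0.39, beside -0.01 over all genes tested. The transcription factors and targets of the integrated stress response had medians of -0.29 and -0.27, and an unadjusted p below 0.05 was reached by none of these 11. Over the 37 genes, 10 were higher at an unadjusted p below 0.05 and 0 were lower, where 7.79% of all genes tested were higher and 10.8% lower at this limit. In the fit without the block 0 of the 37 genes were called, against 0.0411% of all genes. With the replicate block Dnajb9, Hsp90b1 and Pdia4 were called and Pdia6 also had an adjusted p below 0.05. All 4 rose, where the block called 1.36% of all genes as higher and gave 1.75% of all genes an adjusted p below 0.05 in that direction. At an unadjusted p below 0.05 the block had 14 of the 37 higher and 2 lower, against 13.2% and 14.8% of all genes. With voom on the recovered fragments and the block, 9 of the 37 rose at an adjusted p below 0.05 and 3 were called, against 6.59% and 3.08% of all genes. Without both samples of replicate 2 or of replicate 3, the blocked fit called none of the 37 genes and 0.0% of all genes. Without those of replicate 1 it called 3 of them, Calr, Sdf2l1 and Pdia4, and 0.682% of all genes.

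**Figure D1:**
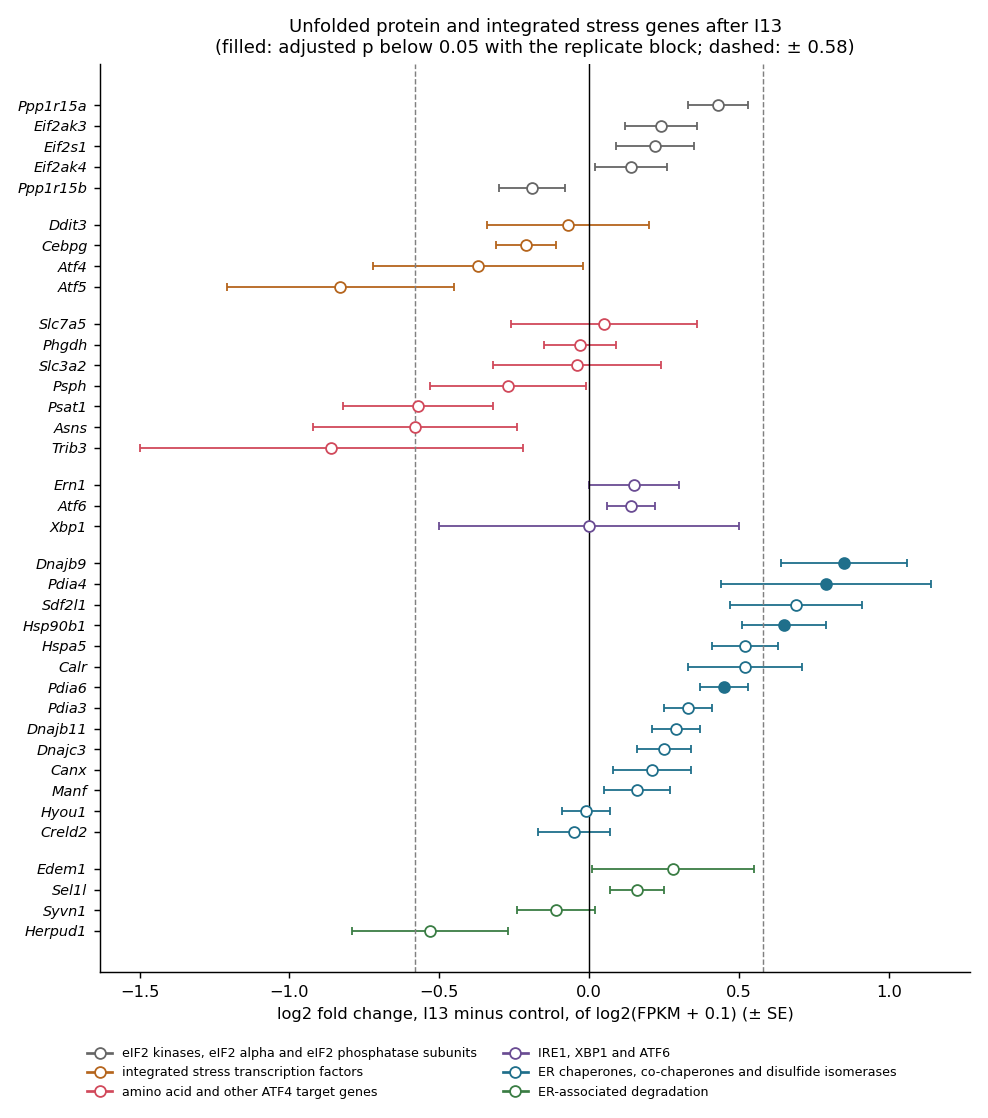
Log2 fold change (x axis, I13 minus control, of log2(FPKM + 0.1), with its SE from the fit without the block) of each of the 37 genes, grouped by role. Filled points had an adjusted p below 0.05 with the replicate block and dashed lines stand at the fold change threshold of 0.58 in either direction; the 4 filled points lie in the ER folding group, while Trib3 at -0.86 and Atf5 at -0.83 lie lowest with wide errors.

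Among the chaperones of the ER lumen, Hspa5 encodes BiP, the HSP70 of the ER, which binds unfolded chains and holds the 3 stress sensors inactive. Hspa5 (ENSMUSG00000026864) stood at 119, 127 and 122 FPKM in the controls, given here and below in the order of replicates 1, 2 and 3, and reached 186, 151 and 191 FPKM after I13. The groups did not overlap, and the controls lay close together. Its log2 fold change was 0.52 (SE, its standard error, 0.11, limma adjusted p = 0.111), and it was higher in 3 of 3 pairs. With the block its adjusted p was 0.0577, and over the alternatives that left out at most 1 sample, meant wherever a range is given below, it ran from 0.0115 to 0.333, so whether it passed 0.05 depended on the fit. In the blocked fit without both samples of replicate 1, 2 or 3 it was 0.126, 0.227 and 0.134. Without such a pair and without the block it reached 0.677.

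Hsp90b1 (ENSMUSG00000020048), which encodes GRP94, the HSP90 of the ER, was at 58.3, 78.4 and 61.8 FPKM in the controls and at 103, 117 and 91.3 FPKM after I13. Every I13 sample lay above every control. Its mean rose from 66.2 ± 10.7 to 104 ± 12.9 FPKM (SD, n = 3 each), 1.57-fold, which passed both thresholds with the block. The log2 fold change was 0.65 (SE 0.14, limma adjusted p = 0.113 without the block and 0.0384 with it), with a higher value in 3 of 3 pairs. Over the alternatives the adjusted p ran from 0.00342 to 0.333. Without the samples of replicate 1, 2 or 3 it was 0.0492, 0.288 and 0.0801 in the blocked fit.

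Dnajb9 (ENSMUSG00000014905), or ERdj4, is a J-domain co-chaperone of BiP and a well-known target of XBP1. It was expressed at a lower level, at 8.08, 5.30 and 8.77 FPKM in the controls and 11.6, 12.2 and 15.8 FPKM after I13. The groups did not overlap. Its log2 fold change of 0.85 (SE 0.21) was the largest increase of the 37 genes on this scale, with an adjusted p from limma of 0.124 without the block and 0.0478 with it, a range over the alternatives of 0.00831 to 0.333, and a higher value in 3 of 3 pairs. It stayed above 0.05 in the blocked fit without any 1 pair, at 0.0561, 0.305 and 0.106.

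The other J-domain co-chaperones pointed the same way. Dnajb11 (ERdj3) was at 27.6, 25.3 and 24.95 FPKM in the controls and 31.4, 31.4 and 32.6 FPKM after I13, and Dnajc3 (p58IPK, also an inhibitor of PERK) at 10.1, 10.8 and 10.2 FPKM against 13.2, 12.1 and 11.7 FPKM. Neither gene overlapped between the groups. Their log2 fold changes were 0.29 and 0.25, with adjusted p from limma of 0.154 and 0.223, and both were higher in 3 of 3 pairs. Sdf2l1, a partner of these J-domain proteins, was at 47.6, 33.0 and 30.6 FPKM in the controls and 44.7, 68.3 and 65.6 FPKM after I13. It differed between the pairs, being slightly lower after I13 in replicate 1 and higher in the other two. Its log2 fold change was 0.69 (SE 0.22, limma adjusted p = 0.178, 0.142 with the block). Without both samples of replicate 1, 2 or 3 the fold change on this scale was 1.07, 0.50 and 0.48. The adjusted p in the blocked fit was then 0.0319, 0.482 and 0.33. Over the alternatives it ran from 0.0563 to 0.366.

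The lectin chaperones calreticulin and calnexin hold glycoproteins until they are folded. Calr (ENSMUSG00000003814) was at 340.3, 281 and 366 FPKM in the controls and 397, 420.1 and 617 FPKM after I13. The groups did not overlap, with I13 replicate 3 far above the other samples. Its log2 fold change was 0.52 (SE 0.19, limma adjusted p = 0.208, 0.0638 with the block), from 0.32 to 0.64 when 1 sample was left out. Canx, the membrane-bound partner, had overlapping groups, a log2 fold change of 0.21 and an adjusted p of 0.429 from limma, though it was higher in 3 of 3 pairs.

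The protein disulfide isomerases form and rearrange the disulfide bonds of folding proteins. Pdia6 (ENSMUSG00000020571) was at 69.9, 70.0 and 67.0 FPKM in the controls and 89.7, 95.3 and 97.0 FPKM after I13. The controls lay within a few FPKM of each other and the I13 samples somewhat further apart, and the groups did not overlap. The mean rose from 68.9 ± 1.72 to 94.0 ± 3.85 FPKM (SD, n = 3 each), 1.36-fold, with a log2 fold change of 0.45 (SE 0.08), which is under the fold change threshold. Its adjusted p from limma was 0.0989 without the block and 0.0447 with it, 0.0093 to 0.31 over the alternatives, and it was higher in 3 of 3 pairs. In the blocked fit without 1 pair it was 0.0642, 0.305 and 0.104.

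Pdia3 (ERp57), which works with calreticulin and calnexin, was at 106, 113 and 107 FPKM in the controls and 133, 140.5 and 136 FPKM after I13. Here too the groups did not overlap. For Pdia3 the log2 fold change was 0.33 (SE 0.08, limma adjusted p = 0.116, 0.0509 with the block). Pdia4 (ERp72, ENSMUSG00000025823) was at 44.1, 34.6 and 64.2 FPKM in the controls and 62.1, 60.01 and 136 FPKM after I13. Its groups overlapped, because control replicate 3 lay above I13 replicates 1 and 2, yet within every pair the I13 sample was the higher, by 0.49, 0.79 and 1.08 on the log2 scale. The log2 fold change was 0.79, with a SE of 0.35 without the block and an adjusted p from limma of 0.286. It was 0.40 without I13 replicate 3 and 1.03 without control replicate 3. With the block Pdia4 rose with an adjusted p of 0.0447, and over the alternatives the range was 0.00484 to 0.488. Without the samples of replicate 1, 2 or 3 the blocked fit gave 0.0437, 0.305 and 0.0867.

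**Figure D2:**
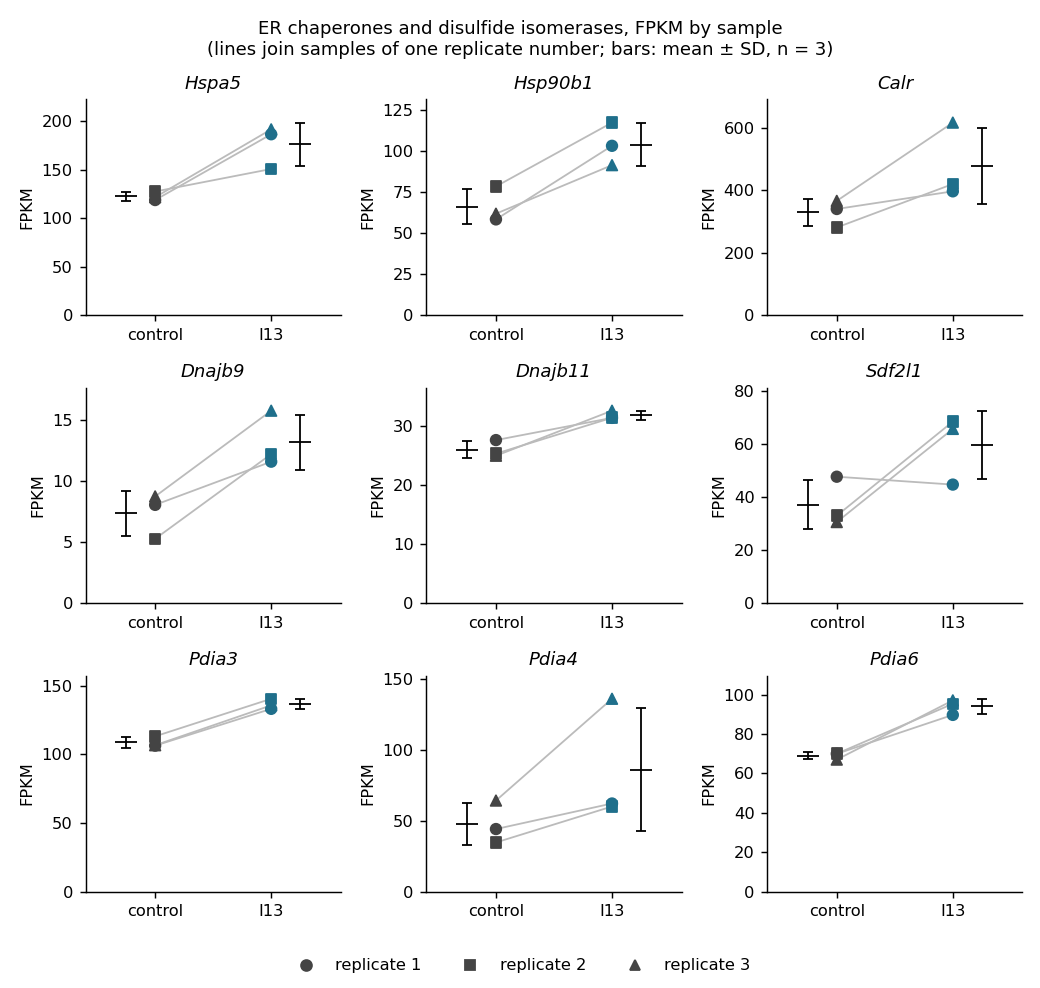
FPKM (y axis, from 0) of 9 ER chaperones and disulfide isomerases in the control (grey) and I13 (blue) samples, with lines joining samples of the same replicate number and bars for the mean ± SD (n = 3). The lines go up in all 9 genes for replicates 2 and 3, and in all but Sdf2l1 for replicate 1.

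The remaining ER folding genes showed smaller differences. Hyou1, the ER chaperone GRP170 that exchanges the nucleotide of BiP, was at 32.7 to 34.1 FPKM in the controls and 32.2 to 34.9 FPKM after I13, a log2 fold change of -0.01 (SE 0.08) whose sign turned under other scalings. Creld2 and Manf, small ER stress-induced proteins, had log2 fold changes of -0.05 and 0.16, with adjusted p from limma of 0.857 and 0.477. Hyou1, Creld2 and Manf are themselves well-known targets of the unfolded protein response. Summed over the 14 folding genes, the level was 1049, 1011 and 1066 FPKM in the control replicates and 1314, 1354 and 1622 FPKM in the I13 replicates, with Calr the largest part. In 11 of the 14 genes the I13 sample was the higher in all 3 pairs, which held for 24.1% of all genes tested, and in 8 of the 14 the I13 samples did not overlap the controls and lay above them, which held for 9.82% of all genes. Over the 37 genes, 18 were higher and 4 lower in all 3 pairs, and 12 were higher and 2 lower without overlap, where 27.3% of all genes were lower in all pairs and 15.4% lower without overlap.

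The stress sensors themselves showed small differences. Eif2ak3, encoding PERK, was at 3.32, 3.15 and 3.21 FPKM in the controls and 4.06, 3.95 and 3.48 FPKM after I13, without overlap. Between the groups the log2 fold change was 0.24 (SE 0.12, limma adjusted p = 0.324). Atf6 did not overlap either, with 12.4 to 13.1 FPKM against 13.6 to 14.3 FPKM and a log2 fold change of 0.14, while Ern1 overlapped, with 5.33 to 7.48 FPKM against 6.45 to 7.30 FPKM.

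Xbp1 (ENSMUSG00000020484) differed more between the replicate numbers than between the groups. It was at 108, 29.5 and 39.9 FPKM in the controls and at 77.8, 34.9 and 47.0 FPKM after I13. Both samples of replicate 1 lay above all the others. The I13 sample was lower in replicate 1 and higher in replicates 2 and 3, and the log2 fold change was 0.00 (SE 0.50), from -0.38 to 0.55 when 1 sample was left out. The FPKM does not separate the spliced from the unspliced mRNA.

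On the eIF2 side, Ppp1r15a encodes GADD34, the inducible subunit that directs protein phosphatase 1 to phosphorylated eIF2 and so restores translation. Ppp1r15a (ENSMUSG00000040435) was at 12.2, 10.8 and 10.7 FPKM in the controls and 13.9, 15.6 and 15.9 FPKM after I13. The groups did not overlap, and the difference was smallest in replicate 1. On the log2 scale the fold change was 0.43 (SE 0.10, limma adjusted p = 0.12, 0.0794 with the block), and over the alternatives the adjusted p ran from 0.0331, with voom and the block, to 0.333. Ppp1r15b, the constitutive counterpart, was instead lower in 3 of 3 pairs, with 61.0 to 69.7 FPKM against 50.0 to 62.7 FPKM, overlapping groups, a log2 fold change of -0.19 and an adjusted p of 0.403. Eif2s1, the eIF2 alpha subunit that is phosphorylated, and Eif2ak4 had overlapping groups and log2 fold changes of 0.22 and 0.14.

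Among the transcription factors and target genes of the integrated stress response, replicate 1 differed from the other pairs. Atf4 (ENSMUSG00000042406), the factor at the centre of the response, was at 377, 238 and 167 FPKM in the controls and 125, 222 and 252 FPKM after I13. Control replicate 1 was the highest and I13 replicate 1 the lowest of the 6 samples, and the groups overlapped. Within the pairs the difference was -1.59, -0.10 and 0.59 on the log2 scale. Its change on the log2 scale was -0.37 (SE 0.35, limma adjusted p = 0.606), and without both samples of replicate 1 it was 0.24.

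Trib3, a pseudokinase induced by ATF4 and CHOP that holds them back, showed the widest spread. It was at 57.3, 24.4 and 24.0 FPKM in the controls and 6.38, 25.6 and 34.2 FPKM after I13. The I13 sample lay below its control in replicate 1 alone, with a pair difference of -3.15 against 0.07 and 0.51 in the other pairs. The log2 fold change was -0.86 (SE 0.64, limma adjusted p = 0.503), and 0.29 without both samples of replicate 1. Ddit3, encoding the stress factor CHOP, was at 10.2, 6.99 and 7.25 FPKM in the controls and 5.30, 7.59 and 11.004 FPKM after I13. The groups overlapped throughout, and its log2 fold change was -0.07 (SE 0.27, limma adjusted p = 0.909) and 0.36 without replicate 1.

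Atf5, a stress factor related to ATF4, had 11.8, 9.59 and 9.48 FPKM in the controls and 2.99, 6.50 and 9.57 FPKM after I13. I13 replicates 1 and 2 lay below all controls and replicate 3 among them. Its log2 fold change of -0.83 (SE 0.38, limma adjusted p = 0.294) ran from -1.19 to -0.37 when 1 sample was left out. Cebpg, a dimer partner of ATF4, was lower after I13 without overlap, at 10.8 to 12.8 FPKM against 9.65 to 10.3 FPKM, with a log2 fold change of -0.21 and an adjusted p of 0.326.

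Of the amino acid genes that ATF4 drives, Asns makes asparagine, and Phgdh, Psat1 and Psph are the successive enzymes of serine synthesis. Asns (ENSMUSG00000029752) was at 144, 123 and 75.5 FPKM in the controls and 45.5, 93.1 and 93.3 FPKM after I13. Control replicate 3 lay below I13 replicates 2 and 3, so the groups overlapped. For Asns the log2 fold change was -0.58 (SE 0.34, limma adjusted p = 0.391), and -0.05 without both samples of replicate 1. Psat1 was at 214, 220.1 and 152 FPKM in the controls and 89.5, 161 and 151 FPKM after I13, and was lower in 3 of 3 pairs, by 1.26, 0.45 and 0.01. The log2 fold change was -0.57 (SE 0.25, limma adjusted p = 0.274). Phgdh, among the most abundant of the 37 genes, had a log2 fold change of -0.03, and Psph, below 1 FPKM in all samples, one of -0.27.

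Slc7a5 and Slc3a2 encode the light and heavy chains of the LAT1 transporter for large neutral amino acids. Slc7a5 was at 233, 205 and 210.0 FPKM in the controls and 133, 248 and 341 FPKM after I13. Slc3a2 followed the same order after I13, with 72.8, 126 and 169 FPKM, against 135, 108 and 116 FPKM in the controls. In both genes I13 replicate 1 was below and I13 replicate 3 above every control, and the log2 fold changes were 0.05 and -0.04 with SEs of 0.31 and 0.28.

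**Figure D3:**
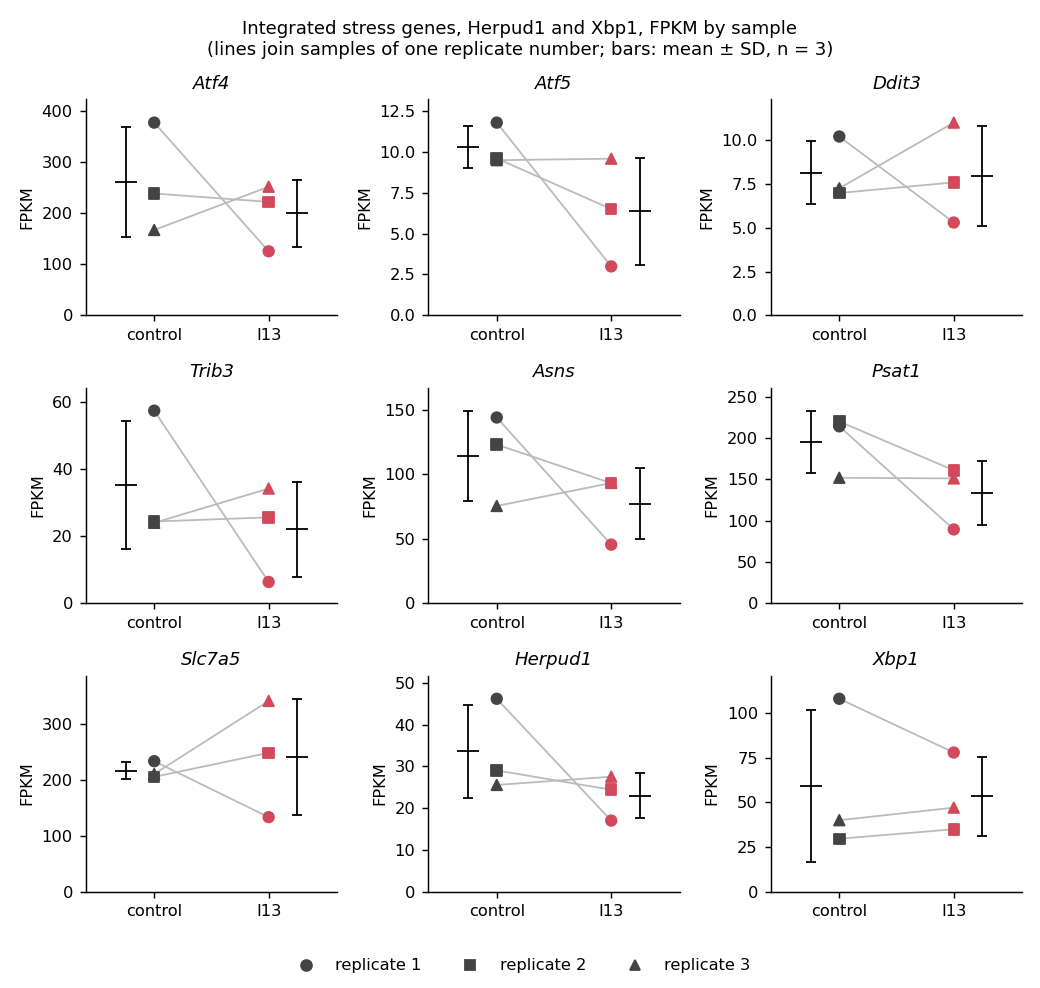
FPKM (y axis, from 0) of 7 integrated stress genes, Herpud1 and Xbp1 in the control (grey) and I13 (red) samples, with lines joining samples of the same replicate number and bars for the mean ± SD (n = 3). In replicate 1 the I13 sample is the lower in all 9 genes. The lines of replicates 2 and 3 go either way and are flatter, except that of Slc7a5 in replicate 3.

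All 4 stress transcription factors and all 7 measured target genes had their lowest value of the 6 samples in I13 replicate 1, where 15.8% of all genes tested did. Control replicate 1 held the highest value in 6 of these 11 genes, where 15.3% of all genes did. The median pair difference of the factors was -1.26, -0.12 and 0.30 in replicates 1, 2 and 3, and that of the targets was -0.89, -0.01 and 0.31. Over all genes tested the pair medians were 0.02, 0.00 and -0.05. The 14 folding genes had medians of 0.33, 0.31 and 0.46, and without both samples of replicate 1 their median log2 fold change was 0.40, while those of the factors and of the targets were 0.07 and 0.11. Library totals of the replicate 1 samples were 17722950 in the control and 17623236 after I13.

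**Figure D4:**
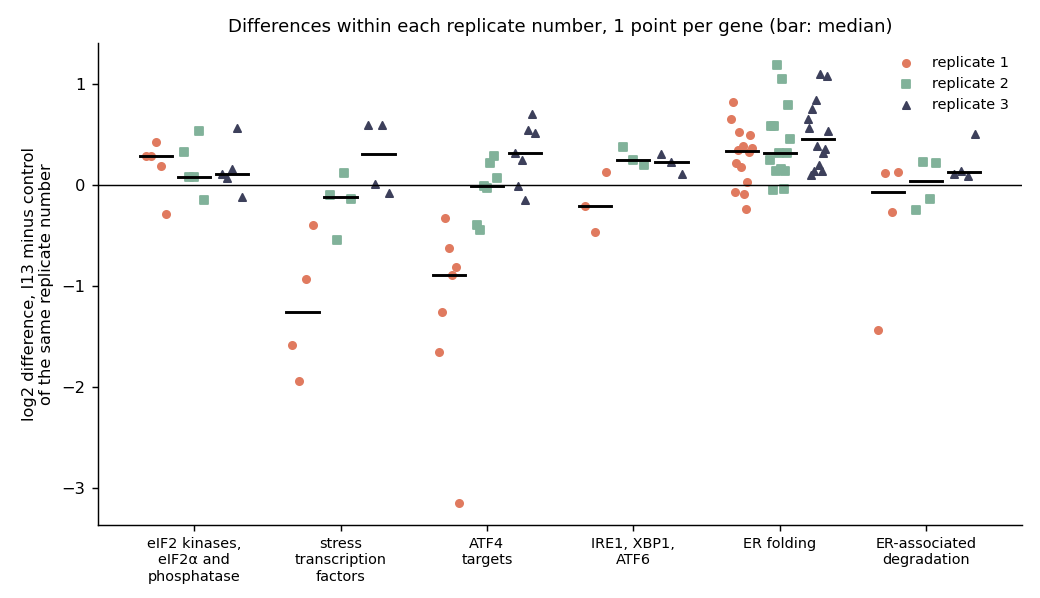
Difference in log2(FPKM + 0.1) between the I13 and the control sample of the same replicate number (y axis) for each of the 37 genes, by role (x axis) and replicate (colour and shape), with a bar at the median. The folding genes have medians of 0.33, 0.31 and 0.46 in replicates 1, 2 and 3, whereas the targets of ATF4 go from -0.89 in replicate 1 to 0.31 in replicate 3.

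In ER-associated degradation, misfolded proteins are passed by Edem1 and Sel1l to the ubiquitin ligase HRD1 (gene Syvn1), with Herpud1 as a scaffold. Herpud1, which responds to ATF4 as well as to ATF6 and XBP1, was at 46.2, 29.03 and 25.5 FPKM in the controls and 17.0, 24.4 and 27.5 FPKM after I13. As for Atf4, control replicate 1 was highest and I13 replicate 1 lowest, and its log2 fold change was -0.53 (SE 0.26, limma adjusted p = 0.321), or -0.07 without both samples of replicate 1. Sel1l was higher without overlap, at 10.6 to 10.96 FPKM against 11.6 to 12.6 FPKM, a log2 fold change of 0.16 with an adjusted p of 0.35. Edem1 was higher in 3 of 3 pairs, with overlapping groups and a log2 fold change of 0.28 that was 0.04 without I13 replicate 3 and 0.51 without I13 replicate 2. Syvn1 had a log2 fold change of -0.11.

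Beyond these 37 genes, 110 other genes of the same pathways were tested. Without the block 13 of them were higher and 15 lower at an unadjusted p below 0.05, and 0 were called by limma. Over all genes tested 7.79% were higher and 10.8% lower at this limit, which is the background for the lists that follow. Of 22 other ER folding genes, 5 were higher and 4 lower at this limit, with a median log2 fold change of 0.17. With voom and the block, 6 of these 22 rose and 1 fell at an adjusted p below 0.05. In the same fit 11 of the 110 rose and 7 fell, against 6.59% and 5.75% of all genes. With the block 2 of the 110 were called, Hspa13 and Ero1l, and both rose, a share near the 1.36% of all genes that the block called as higher. Hspa13, an HSP70-like ATPase of the microsomes, was at 8.35, 9.05 and 10.8 FPKM in the controls and 16.05, 15.9 and 16.2 FPKM after I13, with every I13 sample above every control. Between the groups the log2 fold change was 0.77 (SE 0.11), with an adjusted p from limma of 0.086 without the block and 0.0384 with it, 0.00302 to 0.298 over the alternatives. Ero1l, the oxidase that recharges the disulfide isomerases, was at 58.5, 40.4 and 98.1 FPKM in the controls and 87.7, 88.4 and 219 FPKM after I13. As with Pdia4, its groups overlapped while all 3 pairs were higher after I13, by 0.58, 1.13 and 1.16. On the log2 scale the fold change was 0.96, with an adjusted p of 0.291 without the block and 0.0384 with it, 0.00276 to 0.492 over the alternatives. The fold change on this scale was 0.52 without I13 replicate 3 and 1.29 without control replicate 3. In the blocked fit without both samples of replicate 1, 2 or 3, the adjusted p of Hspa13 was 0.0654, 0.295 and 0.0788, and that of Ero1l was 0.0319, 0.295 and 0.0879.

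The other genes of the eIF2 branch pointed the other way. Of 35 tested, among them ATF4 targets, aminoacyl-tRNA synthetases and subunits of eIF2B, the exchange factor of eIF2, 30 had a lower mean after I13, and 8 were lower and 0 higher at an unadjusted p below 0.05. Their median log2 fold change was -0.38, and -0.06 without both samples of replicate 1. The highest of the 6 values was in control replicate 1 for 26 of the 35 and the lowest was in I13 replicate 1 for 24, and their median pair differences were -0.91, -0.23 and 0.12 in replicates 1, 2 and 3. With the block 0 of the 35 had an adjusted p below 0.05 from limma, and with voom and the block 4 fell at this level, against 5.75% of all genes. They were Shmt2, the mitochondrial serine hydroxymethyltransferase, and the eIF2B subunit genes Eif2b1, Eif2b2 and Eif2b5. Of the 35 genes, 6 were lower without overlap and 9 were lower in 3 of 3 pairs, which held for 15.4% and 27.3% of all genes. Eif2b1, Eif2b2 and Eif2b5 were in both counts, with log2 fold changes of -0.34, -0.38 and -0.33. Without both samples of replicate 1 these genes had -0.35, -0.35 and -0.25. Their adjusted p with voom and the block was 0.0319, 0.0224 and 0.0404, and over the alternatives it reached 0.333, 0.333 and 0.406. The other eIF2B subunit genes differed from these. Eif2b4 had a log2 fold change of -0.22 and an adjusted p of 0.174 with voom and the block. Eif2b3 had a log2 fold change of 0.13 and was higher in 3 of 3 pairs. Shmt2 overlapped, with a log2 fold change of -0.57, and -0.29 without replicate 1, and its adjusted p ran from 0.0462 to 0.463. Of 21 other degradation genes, 3 were higher and 3 lower at an unadjusted p below 0.05, and of 24 genes of ER entry and export, 5 were higher and 0 lower, with median log2 fold changes of 0.07 and 0.00. Of 8 other sensors and proteases of the unfolded protein response, 0 had an unadjusted p below 0.05 in either direction.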

How the data were processed

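mRNA of 3 control and 3 I13-treated BaF3-T315I samples was sequenced from stranded TruSeq libraries. The authors deposited 1 table of FPKM values for 22413 genes, without pooling of replicates. The submitters' processing notes name Trimmomatic, HISAT2, Cufflinks and HTSeq, without versions, and hg38. The annotation and the strand setting of the counting are not given in the sources used here, and 0 columns were left without a sample. No mouse genome was used, so no coordinates or sequences are given.

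Whole fragments, gene lengths and library totals were recovered from the deposited FPKM for 99.99% of the genes (tolerance 0.03 fragments). The recovery was tested on simulated data. Library totals of 16762119 to 17722950 fragments set the precision, and no counting intervals were computed.

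The comparison used limma 3.58.1 in R 4.3.3 with eBayes and a trend, two-sided, on log2(FPKM + 0.1) after removing genes averaging under 0.5 FPKM, adjusted by the Benjamini-Hochberg method over 12163 genes. A fold change on this scale understates that of low genes. The fit was tested on simulated data. Correlations of deviations from the group mean were 0.15, 0.30 and 0.22 for same-numbered samples of replicates 1, 2 and 3 and -0.26 to 0.05 otherwise. As all 3 same-number values exceeded 0.1, same-numbered samples were treated as pairs. Neither the labels nor the paper say what a number shares.

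Members and lists were chosen with earlier results of these data known. Values of all samples are given for genes with an unadjusted p below 0.05, for those with an adjusted p below 0.05 with the block, and for Atf4, Ddit3, Trib3, Asns, Hspa5, Xbp1 and Herpud1, and for further genes chosen after their values were seen (Atf5, Psat1, Slc7a5, Slc3a2 and Eif2ak3). Of the other pathway genes, those with an adjusted p below 0.05 in either limma fit are named. Shmt2, Eif2b1, Eif2b2, Eif2b3, Eif2b4 and Eif2b5 were added after their values were seen. Alternatives were other pseudocounts, filters, scalings and eBayes settings, the replicate block, voom on the recovered fragments and leaving out each sample. Leaving out pairs was chosen after seeing the data. A symbol with more than 1 row was left out of the lists. T cell and fibroblast markers summed to at most 0.43 and 0.13 FPKM, and erythroid markers to 4.34 to 5.63 FPKM in the controls and 7.44 to 12.6 FPKM after I13, mainly Hba-a1 and Epor. Figures used matplotlib 3.10.9 and Python 3.11.15.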

Additional observations from a re-analysis of the deposited data

How the results depend on the processing

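The replicate block moved the counts most. With the replicate block 230 of all genes were called, 3 of the 37 genes and 2 of the 110 other pathway genes, against 5, 0 and 0 without it, and 16 of the 37 had an unadjusted p below 0.05 against 10. With voom on the recovered fragments and the block these counts were 502, 3, 4 and 18. The block changed no call of the 37 genes other than those of Dnajb9, Hsp90b1 and Pdia4. Of all genes, 2 were called under median-ratio scaling, quantile normalization or a pseudocount of 0.01, and 8 when the filter, or the trend of eBayes, was dropped. Without any 1 sample, 0 to 0 of all genes were called, 1478 to 2482 of all genes had an unadjusted p below 0.05, and so had 9 to 13 of the 37. Without a pair, an alternative chosen after seeing the data, 0 to 83 of all genes, 0 to 3 of the 37 and 0 to 1 of the others were called in the blocked fit, and with or without the block 6 to 16 of the 37 had an unadjusted p below 0.05. These fits have fewer samples, and the cause of the differences between the fits was not tested.

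Directions turned in 9 of the 37 genes. The log2 fold change of Hyou1 was 0.022 with the FPKM rescaled to TPM, 0.011 after quantile normalization and 0.0052 after median-ratio scaling, that of Phgdh 0.022 with quantile normalization, and that of Xbp1 -0.0017 with a pseudocount of 1 and -0.019 with voom and the block. Without any 1 sample it ran from -0.335 to 0.185 for Ddit3, from -0.146 to 0.0696 for Phgdh, from -0.316 to 0.292 for Slc3a2, from -0.248 to 0.431 for Slc7a5, from -0.383 to 0.55 for Xbp1, from -0.043 to 0.0148 for Hyou1 and from -0.108 to 0.0507 for Creld2. Without both samples of replicate 1 it turned to 0.245 for Atf4, 0.29 for Trib3, 0.356 for Ddit3, 0.114 for Phgdh, 0.381 for Slc3a2, 0.0222 for Hyou1 and 0.049 for Creld2. Without those of replicate 2 it turned to -0.0558 for Slc7a5, -0.119 for Xbp1 and 0.0151 for Hyou1, and without those of replicate 3 to -0.267 for Slc7a5 and -0.116 for Xbp1. The other 28 genes kept their direction under every alternative run. Psph rests on the fewest fragments, 43 to 71 per library.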
